A study of Rattus norvegicus with 18 samples.

Results

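The arrays described here are the 5 hippocampal arrays made 7 days after status epilepticus (SE), the group called D7, set against the 3 arrays of saline-treated rats, called Control. They were taken by their source labels and make up 8 of the 18 arrays of the series, the others being 5 arrays made 3 days after SE (D3) and 5 made soon after the first spontaneous seizure (Chronic). The rats were adult male Wistar rats, with 1 array of total RNA per rat. D7 rats received pilocarpine, a muscarinic agonist, after scopolamine methylnitrate, which limits its action outside the brain, and diazepam to end SE. Control rats received saline only, so that pilocarpine, both other drugs and SE itself cannot be told apart. Control 26 belongs to the 3-day time, Control 36 to the 7-day time and Control 47 to the time of the first seizure. The methods pair each time with its own controls, which here leaves 1 array for 7 days, and therefore all 3 were used. D7 arrays are named by their numbers, 31 to 35, and values below follow the order 31, 32, 33, 34 and 35 at D7 and 26, 36 and 47 in Control.

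Pilocarpine-induced SE damages neurons of the hippocampus and is followed by a seizure-free latent period, after which rats become epileptic. Microglia, the resident phagocytes of the brain, and astrocytes, which buffer ions and transmitters, change state during this period, and blood-borne leukocytes can enter the tissue. Cholesterol in the adult brain is made locally, by astrocytes and oligodendrocytes in particular, since lipoproteins of the blood do not cross the blood-brain barrier.

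Values are normalized intensities, in which the median usable spot of each array lies near 1. Differences are D7 minus Control on the log2 scale with a standard error (n = 5 against 3), so that 1 is a doubling. A gene was called higher or lower when its adjusted p from limma was under 0.05 and its change at least 2-fold. Markers of neurons, myelin and astrocytes were present on all 8 arrays. They include Slc17a7, the vesicular glutamate transporter of excitatory neurons (28.1 to 47.9 at D7, 53.6 to 60.9 in Control), Gad1, the GABA-making enzyme of interneurons (12.9 to 21.1 and 28.9 to 30.2), Mbp, a myelin protein (47.9 to 67.6 and 40.4 to 45.6), and Aqp4, the astrocyte water channel (80.0 to 94.0 and 56.4 to 63.7). The neuronal marker Rbfox3 and the globin gene Hbb had no probe under those names. In bulk tissue, fewer cells of a type and less RNA per cell cannot be told apart.

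Array 33 stood apart within D7. Its correlation with the other D7 arrays over all tested probes was 0.950 to 0.958, while they correlated at 0.956 to 0.969 among themselves. With Control it correlated at 0.929 to 0.939, and the other D7 arrays at 0.947 to 0.964. On array 33, 1894 probes were at least 2-fold above the mean of the other D7 arrays and 1279 below it, against 715 to 1361 above and 1260 to 1675 below for each of the others. In a fit that weights arrays by their fit to the groups, it had the lowest weight of all 18 (0.387). Its share of spots flagged good was 69.3%, within the 66.9% to 71.0% of the other D7 arrays. Results are therefore also given without it.

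**Figure D1:**
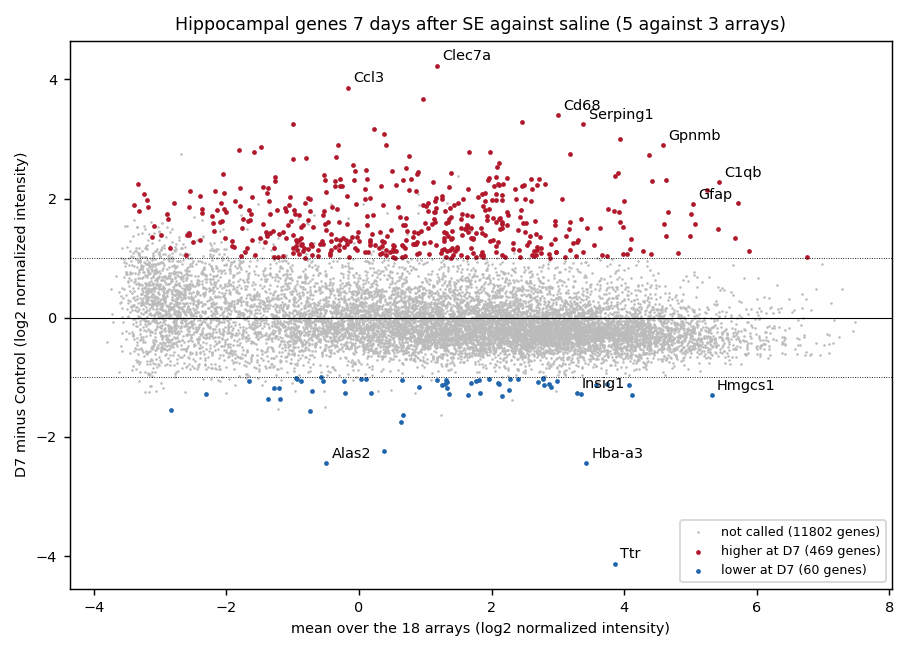
Each point is 1 of 12331 genes, with its mean log2 normalized intensity over the 18 arrays on the horizontal axis and its difference D7 minus Control (log2) on the vertical axis. Red and blue points are the 469 genes called higher and the 60 called lower, dotted lines mark 2-fold, and most well-measured genes lie slightly below 0.

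Rises outnumbered falls 7 days after SE. Of 12331 genes tested, 469 were higher at D7 (3.8%) and 60 lower (0.487%), and of 33800 probes, 1035 (3.06%) and 146 (0.432%), together 3.49%. At least 4-fold higher were 102 genes, and at least 4-fold lower 4. In 400 of the 469 higher genes every D7 array lay above every Control array, as in 9.21% of all genes, and in 53 of the 60 lower genes every D7 array lay below, as in 21.7% of all genes. The balance turned without the fold limit, where 991 genes were above Control at an adjusted p under 0.05 (8.04%) and 1908 below (15.5%). Falls were thus more numerous but smaller. The median difference over all genes was -0.12, and it was -0.16 for the 9087 genes with all 8 spots flagged good and 0.23 for the 1228 genes with none. Negative control spots had a median of 0.107 to 0.160 on the D7 arrays and 0.107 to 0.113 on the Control arrays, and their part in this shift was not tested. Without D7 array 33, 720 probes were higher and 87 lower, of which 697 and 75 were among those called with it.

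**Figure D2:**
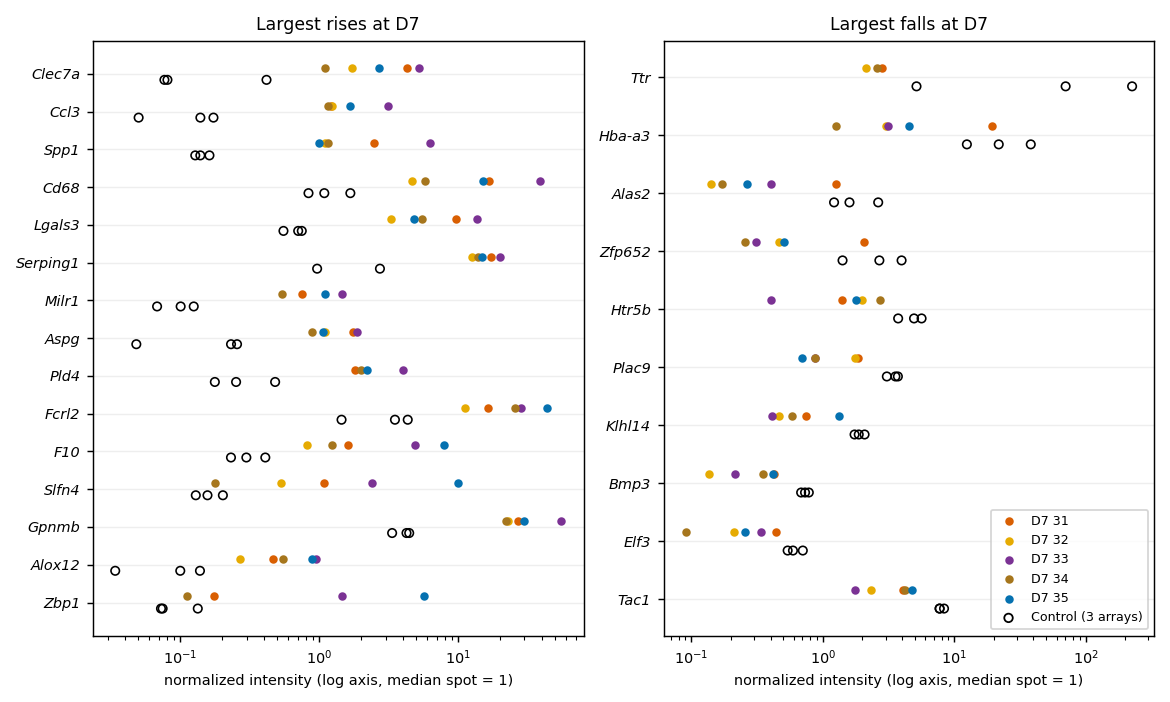
Normalized intensity on each array (horizontal log axis) of the 15 genes with the largest rise and the 10 with the largest fall among those called (vertical axis), with 1 filled point per D7 array and 1 open circle per Control array. The D7 points of the 15 rises lie above all open circles apart from Slfn4 and Zbp1 on D7 34, with no D7 32 spot for Milr1, Pld4 and Zbp1, while D7 31 lies among the Control values for Hba-a3, Alas2 and Zfp652, and Ttr lacks its saturated spots on D7 33 and D7 35.

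The largest rises were in genes of phagocytes. Clec7a, which encodes the beta-glucan receptor dectin-1, read 4.29, 1.72, 5.23, 1.10 and 2.70 at D7 and 0.0768, 0.0808 and 0.417 in Control. Every D7 array was above every Control array, and the difference was 4.23 ± 0.51 (adjusted p = 5.37e-05). Cd68, a lysosomal membrane protein of macrophages and activated microglia, read 16.6, 4.67, 39.1, 5.76 and 15.1 at D7 and 1.09, 0.837 and 1.67 in Control (3.40 ± 0.48, adjusted p = 0.000229). Gpnmb, a glycoprotein of lipid-laden phagocytes, varied less, at 26.9, 22.9, 55.2, 22.2 and 29.8 at D7 and 3.35, 4.25 and 4.44 in Control (2.89 ± 0.22, adjusted p = 9.36e-07). Lgals3, which encodes the lectin galectin-3, read 9.66, 3.27, 13.7, 5.51 and 4.80 at D7 and 0.553, 0.705 and 0.749 in Control, again with no overlap (3.29 ± 0.42). Spp1, which encodes osteopontin, a secreted phosphoprotein that binds integrins, was not above the good-spot limit on any Control array and rose at least 6.38-fold, from 0.162, 0.128 and 0.139 in Control to 2.48, 1.11, 6.25, 1.15 and 0.989 at D7. Array 33 was the highest D7 array for all 5 of these genes, and their differences without it were 3.98, 2.98, 2.67, 3.02 and 3.22, all still called. Of 28 measured genes of phagocyte activation, 17 rose and none fell, with a median of 1.71 beside -0.12 over all genes and 3.8% of all genes higher, and 10 rose against Control 36 alone. The list's mean over Control on each D7 array was 1.74, 1.12, 2.15, 1.32 and 1.78. Not called were Trem2, a lipid receptor of microglia on the identity list, at 0.38, and Apoe and Lpl, which carry and break down lipoproteins, at 0.48 and 1.65.

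Genes that identify microglia rose too. Of 20 measured, 12 were higher and none lower, with a median of 1.34. Csf1r, the receptor for the growth factors on which microglia depend, read 61.6, 50.8, 112, 53.9 and 84.3 at D7 and 26.1, 27.6 and 28.5 in Control (1.34 ± 0.19, adjusted p = 0.000269). Aif1, which encodes the calcium-binding protein Iba1, read 30.1, 17.8, 59.1, 22.1 and 43.1 at D7 and 10.5, 11.96 and 13.9 in Control (1.38 ± 0.28, adjusted p = 0.00306). Both were higher on every D7 array, and array 32 was the lowest of the 5 for each. Cx3cr1, the fractalkine receptor, was dim, with no Control spot flagged good, and was higher by 1.33 ± 0.36 (at least 1.59-fold, adjusted p = 0.0167), with array 32 among the Control values. Among genes of Fc receptors and immune receptor signaling, 16 of 21 rose and none fell, with a median of 1.67, and 9 rose against Control 36 alone. Fcgr3a, a low-affinity IgG receptor, read 3.56, 1.64, 17.1, 2.41 and 14.9 at D7 and 0.955, 0.822 and 1.27 in Control (2.36 ± 0.57), high on arrays 33 and 35. Ptpn6, the phosphatase SHP-1 of blood cells, read 8.59, 4.86, 21.0, 7.14 and 12.3 at D7 and 1.88, 1.81 and 1.96 in Control (2.34 ± 0.30, adjusted p = 9.85e-05), with no overlap. The signaling genes Lat2 (2.71 ± 0.36) and Vav1 (2.33 ± 0.32) were further examples. Aif1, Fcgr3a and Cx3cr1 lost the call against Control 36 alone (adjusted p from 0.097 to 0.555), Fcgr3a and Cx3cr1 lost it in a fit of the D7 and Control arrays alone and Cx3cr1 lost it with quantile normalization and on log2(value + 0.1). Cx3cr1 lost the call without Control 26 or Control 47 (adjusted p up to 0.0806), and without arrays 33 and 35 together Aif1 (log2 difference 0.92, adjusted p = 0.0098) and Cx3cr1 (log2 difference 0.84, adjusted p = 0.137) were not called.

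Complement genes rose with them. Complement is a cascade of secreted proteins that tags debris and synapses for phagocytes. Of 24 measured members, 12 were higher, none was lower and all 24 had a difference above 0 (median 1.11). C1qa, C1qb and C1qc, the 3 chains of the first component, rose by 2.14 ± 0.21, 2.27 ± 0.25 and 2.32 ± 0.28. C1qb read 67.2, 37.6, 99.5, 60.5 and 64.6 at D7 and 13.5, 11.8 and 13.8 in Control (adjusted p = 1.75e-05), every D7 array above every Control array. Serping1, which encodes the inhibitor of that first component, rose furthest of the list, at 17.3, 12.5, 19.98, 13.9 and 14.8 against 0.966 and 2.73 on Control 26 and 47, with the Control 36 spot left out as irregular (3.25 ± 0.25, adjusted p = 1.29e-06). Itgb2, the beta chain of leukocyte integrins including complement receptor 3, read 3.91, 2.28, 14.6, 3.58 and 6.96 at D7 and 0.617, 0.844 and 0.767 in Control (2.77 ± 0.39). The central component C3 was at 0.55 and was not called.

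Among the 15 largest rises were further genes of blood and immune cells. Milr1, an immunoglobulin-like receptor of mast cells and other myeloid cells, read 0.757, 1.47, 0.539 and 1.11 on arrays 31, 33, 34 and 35, had no usable spot on array 32, and read 0.101, 0.125 and 0.0681 in Control (at least 3.17-fold, 3.25 ± 0.46). Pld4, an endolysosomal exonuclease of phagocytes, read 1.82, 3.98, 1.98 and 2.19 on the same 4 arrays and 0.252, 0.481 and 0.177 in Control (3.09 ± 0.31, adjusted p = 9.99e-06). Neither gene had overlapping groups. Fcrl2, an Fc receptor-like gene, read 16.3, 11.3, 28.5, 25.4 and 43.7 at D7 and 1.45, 3.51 and 4.33 in Control (3.01 ± 0.36), highest on array 35. F10, which encodes coagulation factor X, read 1.60, 0.811, 4.88, 1.23 and 7.84 at D7 and 0.299, 0.409 and 0.232 in Control (2.90 ± 0.52, adjusted p = 0.0014). Alox12, an arachidonate lipoxygenase gene, was dim, at 0.465, 0.27, 0.946, 0.547 and 0.888 at D7 and 0.034, 0.0999 and 0.139 in Control, and rose at least 1.99-fold (2.86 ± 0.42). A second Milr1 probe with no good spot gave 1.15 (adjusted p = 0.0973). F10 lost the call against Control 36 alone (adjusted p = 0.109).

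Antigen presentation genes varied between rats. Of 13 measured genes of MHC class II presentation, 7 rose and none fell (median 1.38), and the list's mean on the D7 arrays was 1.38, 0.43, 1.80, 1.31 and 1.75, lowest on array 32. Cd74, the invariant chain that guides class II molecules, read 11.2, 3.71, 29.4, 17.3 and 19.6 at D7 and 2.31, 1.52 and 4.75 in Control (2.38 ± 0.48, adjusted p = 0.00314). Array 32 lay among the Control values and the other 4 above them. RT1-Da, a class II alpha chain of the rat, read 3.02, 0.864, 7.27, 3.77 and 5.29 at D7 and 0.664, 0.438 and 1.21 in Control (2.22 ± 0.53), also with array 32 among Control. RT1-DMb, which loads class II molecules, was above Control on all 5 arrays (1.79 ± 0.26), as was Ifi30, a lysosomal thiol reductase of antigen processing (2.23 ± 0.32). Class I presentation and immunoproteasome genes rose in 5 of 16 (median 0.70), beside 2 without arrays 33 and 35 and 1 against Control 36 alone. Among the 5 were the peptide transporter genes Tap1 (1.71 ± 0.35) and Tap2 (1.38 ± 0.33) and the immunoproteasome subunit genes Psmb8 (1.40 ± 0.38) and Psmb9 (1.42 ± 0.32). A second Tap2 probe with no good spot gave -0.07. RT1-Da, Tap1, Tap2, Psmb8 and Psmb9 lost the call against Control 36 alone (adjusted p from 0.0664 to 0.187) and Psmb8 and Psmb9 lost it in a fit of the D7 and Control arrays alone. RT1-Da lost the call without Control 36 (adjusted p = 0.0593), Tap2 without Control 47 (adjusted p = 0.0572) and Psmb8 without Control 26 or Control 36 (adjusted p up to 0.0672), and without arrays 33 and 35 together RT1-Da (log2 difference 1.60, adjusted p = 0.067), Psmb8 (log2 difference 0.75, adjusted p = 0.114) and Psmb9 (log2 difference 0.79, adjusted p = 0.0111) were not called.

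Cytokine, receptor and signaling genes rose, whereas few chemokine genes were called. Of 23 chemokine and chemokine receptor genes, 4 were higher and none lower (median 0.53). Ccl3, a chemokine that draws monocytes, had the largest rise after Clec7a among the genes called, at 1.21, 1.24, 3.12, 1.15 and 1.66 against 0.173, 0.139 and 0.0501, at least 5.45-fold (3.86 ± 0.39, adjusted p = 9.99e-06). Ccl4, its close relative, rose at least 3.57-fold (2.21 ± 0.49), and Cxcl16, which also acts as a scavenger receptor, by 1.19 ± 0.30. Of 44 cytokine genes and their receptors and signaling genes, 19 were higher and none lower (median 0.88). Against Control 36 alone the counts were 1 and 12, and without arrays 33 and 35 they were 2 and 13. They include Tnfsf4, which encodes OX40 ligand (2.57 ± 0.29), Bcl3, a nuclear regulator of NF-kappa-B (2.47 ± 0.45), Ripk3, a kinase of necroptosis (2.41 ± 0.44), and Tgfb1, a cytokine that restrains inflammation and drives scarring (2.02, 1.62, 5.33, 2.20 and 3.10 at D7 and 0.696, 0.278 and 0.716 in Control, 2.33 ± 0.32, adjusted p = 0.000174). The acute cytokine genes Tnf (-0.38), Il6 (0.01), Il1a (-0.48) and Il1b (1.15) were not called. T and B lymphocyte genes were 3 of 19 higher and the median was -0.03. The 3 were Itgal, an integrin chain of leukocytes (2.51 ± 0.45), Cd8b (2.30 ± 0.34) and Cd5 (2.18 ± 0.40), while the T cell receptor component Cd3e read 1.62, 2.19, 1.52, 1.77 and 1.06 at D7 and 1.75, 1.71 and 1.42 in Control and differed by -0.03 ± 0.25 (adjusted p = 0.953). Second probes of Tgfb1 and Itgal, with at most 1 good spot, gave 1.01 and 0.51 and were not called. Ccl4, Cxcl16, Ripk3 and Itgal lost the call against Control 36 alone (adjusted p from 0.0911 to 0.103) and Cxcl16 lost it in a fit of the D7 and Control arrays alone. Cxcl16 lost the call without Control 36 (adjusted p = 0.0682), and without arrays 33 and 35 together Cxcl16 (log2 difference 0.73, adjusted p = 0.085) was not called.

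Lysosomal genes rose, and their mean was highest on array 33. Of 27 measured, 14 were higher and none lower (median 1.01), and without array 33 the count was 9 (median 0.80). In 23 of the 27 every D7 array was above every Control array, beside 9.21% of all genes. Npc2, which hands cholesterol out of the lysosome, read 39.3, 28.1, 80.6, 33.3 and 50.4 at D7 and 13.6, 10.6 and 14.8 in Control (1.74 ± 0.23, adjusted p = 0.000135). Ctsz, a cysteine cathepsin, read 4.502, 2.72, 14.4, 4.27 and 10.1 at D7 and 1.04, 1.15 and 1.38 in Control (2.34 ± 0.40, adjusted p = 0.000997). Lgmn, an asparagine-specific protease, rose by 1.59 ± 0.25, and Laptm5, a lysosomal membrane protein of blood cells, by 1.99 ± 0.28. Gusb, beta-glucuronidase, is often used as a reference gene and was the only 1 of 12 measured housekeeping genes called, at 5.90, 4.37, 11.7, 5.15 and 6.78 at D7 and 1.92, 2.25 and 2.39 in Control (1.55 ± 0.23, adjusted p = 0.000313). Ctsz lost the call against Control 36 alone (adjusted p = 0.0581).

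Reactive astrocyte genes rose, and no gene of mature astrocyte transport was called. Of 26 measured genes of reactive astrocytes, 12 were higher and none lower (median 1.26), and against Control 36 alone 4 were higher. This stood beside 0 of 24 genes of transport and coupling in either direction (median 0.02). Gfap, the intermediate filament that defines reactive astrocytes, read 40.0, 35.9, 49.7, 35.3 and 40.96 at D7 and 9.95, 12.2 and 10.005 in Control (1.91 ± 0.17, adjusted p = 4.90e-06), with no overlap. Aspg, an asparaginase, was not above the good-spot limit in Control and rose at least 4.4999-fold (1.75, 1.10, 1.87, 0.89 and 1.07 against 0.0482, 0.232 and 0.256, 3.17 ± 0.54). Timp1, an inhibitor of matrix metalloproteinases, read 18.1, 5.27, 12.4, 5.15 and 7.65 at D7 and 1.09, 1.001 and 1.93 in Control (2.74 ± 0.56, adjusted p = 0.00333), and Hspb1, a small heat shock protein, 22.03, 14.5, 17.5, 6.88 and 10.4 at D7 and 2.81, 1.76 and 3.00 in Control (2.43 ± 0.52, adjusted p = 0.00468). For both, array 31 was the highest and array 34 the lowest. Aqp4 was above Control on every D7 array but by less than 2-fold (0.54 ± 0.13, adjusted p = 0.00878), and Mlc1, a membrane protein of astrocyte endfeet, was likewise under the fold limit (18.7, 18.8, 16.9, 18.2 and 18.9 at D7 and 9.20, 9.21 and 10.96 in Control, 0.91 ± 0.16, adjusted p = 0.00154). Aspg, Timp1 and Hspb1 lost the call against Control 36 alone (adjusted p from 0.0705 to 0.0745).

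**Figure D3:**
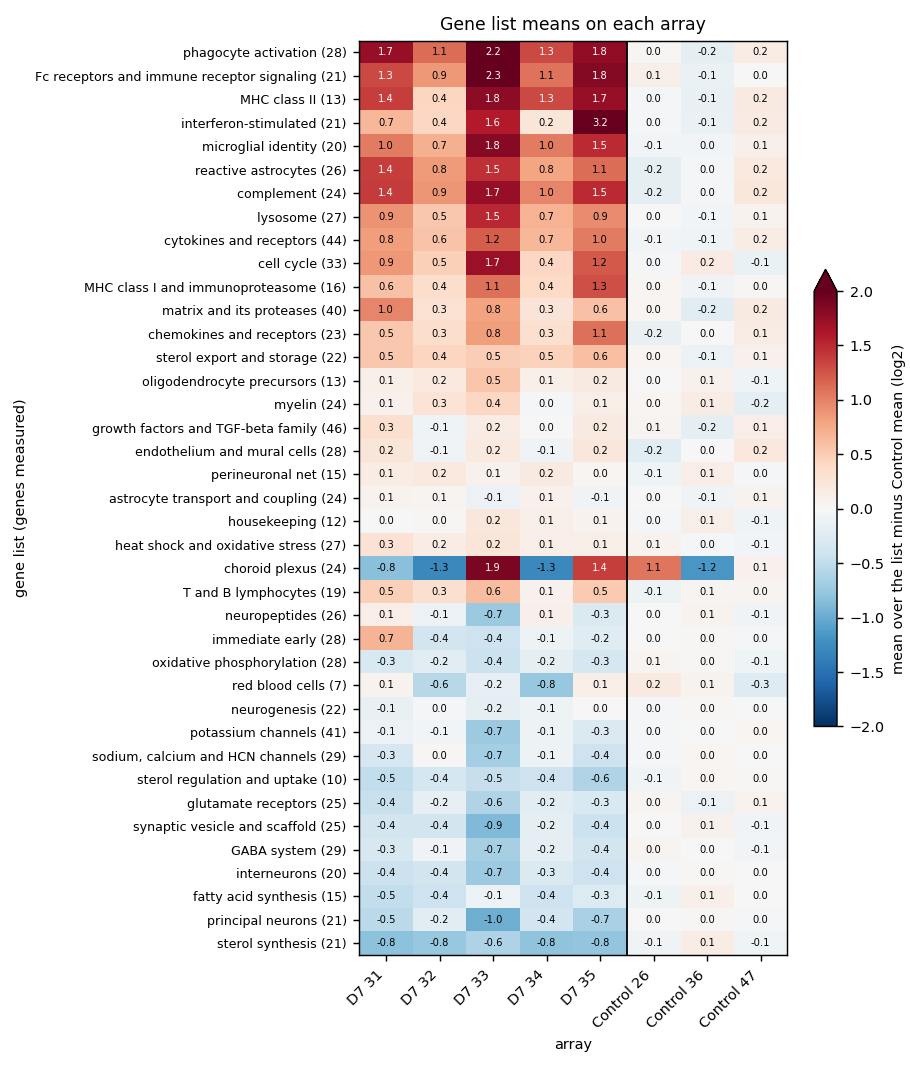
Mean difference from the Control mean (colour and number, log2) of each gene list (vertical axis, with the number of genes measured) on each D7 and Control array (horizontal axis). Lists are ordered by the median difference of their genes. Phagocyte, complement and lysosome lists are above 0 on all 5 D7 arrays. The principal neuron, interneuron and sterol synthesis lists are below 0 on all 5, and the choroid plexus list is split between arrays.

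Genes of sterol synthesis fell, and they fell evenly across the 5 rats. Cells build cholesterol from acetyl-CoA through mevalonate, squalene and lanosterol, and the genes of these steps are switched on together when membrane sterol is low, through the transcription factor SREBP-2. Of 21 measured genes of the pathway, 6 were lower and none higher (median -0.83), against 0.487% of all genes lower. Without the fold limit 17 of the 21 were below Control at an adjusted p under 0.05, beside 15.5% of all genes, and in 17 every D7 array was below every Control array, beside 21.7% of all genes. The list's mean over Control was -0.83, -0.75, -0.62, -0.80 and -0.79 on the D7 arrays, so that array 33, which stood apart elsewhere, was here the least lowered. Without array 33 the count was also 6 (median -0.84), while it was 10 against Control 36 alone, 4 with scaling at percentile 75 and 2 with quantile normalization.

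Hmgcs1, which makes HMG-CoA at the entrance of the pathway, read 26.8, 25.1, 29.9, 26.6 and 33.2 at D7 and 71.8, 82.5 and 56.2 in Control, with every D7 array below every Control array (-1.30 ± 0.16, adjusted p = 4.96e-05). Fdft1, which makes squalene, read 6.07, 7.54, 8.42, 6.78 and 6.74 at D7 and 15.5, 19.3 and 16.9 in Control (-1.28 ± 0.13, adjusted p = 1.26e-05), and its second probe gave -1.21 (adjusted p = 0.000113). Acat2, which joins acetyl-CoA units at the first step, read 4.80, 5.27, 5.06, 6.13 and 4.60 at D7 and 10.5, 13.7 and 10.7 in Control (-1.17 ± 0.12, adjusted p = 1.44e-05). None of these genes had overlapping groups. Msmo1, a sterol demethylase (-1.12 ± 0.18), Idi1, which isomerizes isopentenyl diphosphate (-1.05 ± 0.16), and Tm7sf2, a sterol reductase (-1.04 ± 0.12), completed the 6. Close to 2-fold lower were Cyp51, the lanosterol demethylase (-0.95 ± 0.14), Sc5d, a sterol desaturase (-0.92 ± 0.11), Sqle, which oxidizes squalene (-0.91 ± 0.15), and Nsdhl, a sterol dehydrogenase (-0.85 ± 0.14). Ggps1, which branches off to geranylgeranyl groups, differed by 0.04 ± 0.11 and Lbr, whose sterol reductase activity duplicates that of Tm7sf2, by 0.00 ± 0.14.

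Insig1, an endoplasmic reticulum protein that retains SREBP when sterols are plentiful and is itself a target of it, read 6.68, 6.27, 6.85, 6.02 and 6.95 at D7 and 12.5, 20.2 and 15.5 in Control (-1.27 ± 0.16, adjusted p = 9.85e-05). It was the only gene called of 10 measured genes of sterol regulation and uptake (median -0.44), and a second, dimmer probe that was not flagged good on any array gave 0.11 (adjusted p = 0.935). Srebf2, which encodes SREBP-2, was below Control on every D7 array (-0.60 ± 0.10, adjusted p = 0.000794). Genes that export and store sterols went the other way in 5 of 22 (median 0.39), and in 3 without arrays 33 and 35. Abca1, the transporter that loads cholesterol onto apolipoproteins, read 2.73, 2.32, 2.98, 2.34 and 2.07 at D7 and 0.705, 0.916 and 1.002 in Control (1.51 ± 0.18, adjusted p = 4.86e-05), and a second probe gave 1.56. Ch25h, which makes 25-hydroxycholesterol, rose by 1.59 ± 0.40, and Lcat, which esterifies cholesterol on lipoproteins, by 1.38 ± 0.23. None of 15 genes of fatty acid synthesis was called (median -0.51), and Fads1, a fatty acid desaturase, differed by less than 2-fold (-0.80 ± 0.17, adjusted p = 0.00445). Ch25h lost the call against Control 36 alone (adjusted p = 0.0719), Acat2, Msmo1, Idi1 and Tm7sf2 lost it with quantile normalization and Idi1 and Tm7sf2 lost it with scaling at the percentile 75. Idi1 lost the call without D7 31 or Control 36 (log2 difference -0.96), Tm7sf2 without D7 35 or Control 36 (log2 difference -0.96) and Ch25h without Control 36 (adjusted p = 0.0751), and without arrays 33 and 35 together Ch25h (log2 difference 1.16, adjusted p = 0.0862) was not called.

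The fall of sterol genes was also compared directly with the other times. Of the 21 synthesis genes, 5 were below Chronic at D7 at an adjusted p under 0.05 (0.138% of all genes) and 4 below D3 (1.22% of all genes), all by less than 2-fold. Acat2 differed from Chronic by -0.66 ± 0.11 (adjusted p = 0.0155) and from D3 by -0.58 ± 0.11 (adjusted p = 0.0117). Below Chronic were further Idi1 (-0.92 ± 0.14, adjusted p = 0.00789), Sc5d (-0.55 ± 0.09), Hmgcs1 (-0.72 ± 0.14) and Msmo1 (-0.79 ± 0.16), as well as Insig1 (-0.88 ± 0.14, adjusted p = 0.0135). Below D3 were Fdft1 (-0.64 ± 0.12, adjusted p = 0.0106), Cyp51 (-0.62 ± 0.12) and Tm7sf2 (-0.52 ± 0.10).

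**Figure D4:**
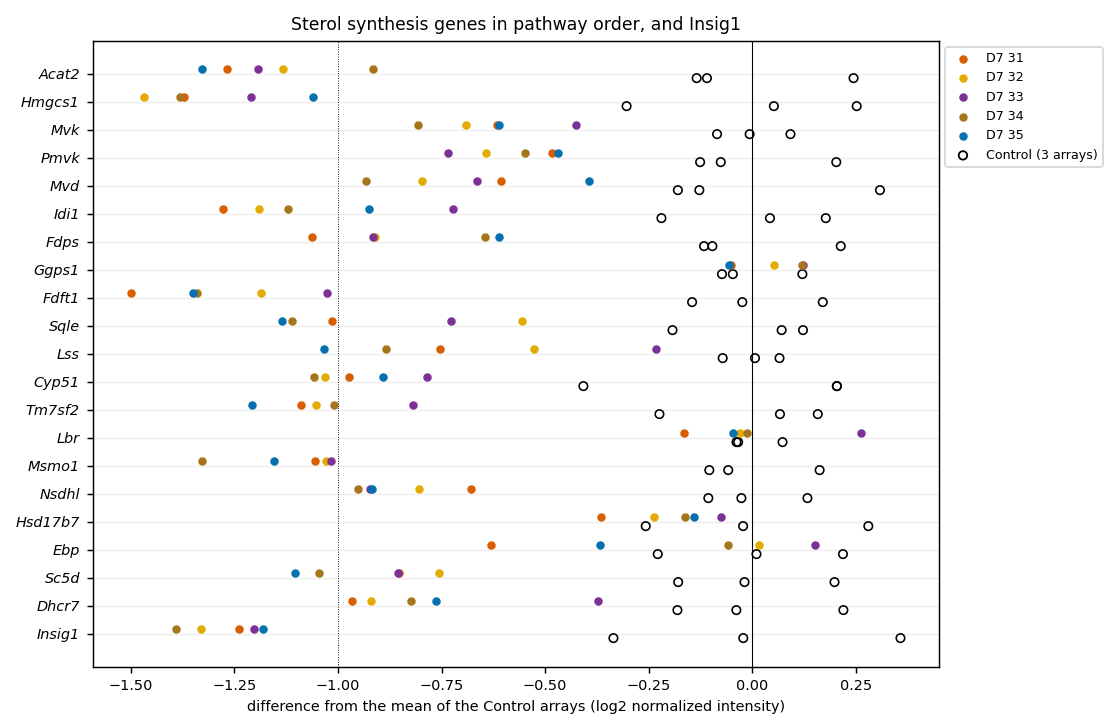
Difference of each array from the mean of the Control arrays (horizontal axis, log2) for 20 of the 21 measured genes of sterol synthesis, in the order of the pathway, and Insig1 (vertical axis). Filled points are D7 arrays, open circles Control arrays and the dotted line marks a 2-fold fall. The 5 points of Hmgcs1, Fdft1, Msmo1 and Insig1 all lie to the left of that line.

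The starts of 2 of the lowered genes are shown because their promoters hold the letters CCAAT, the core of the binding motif of the factor NF-Y, a partner of SREBP at sterol genes. Each line gives the 250 bases before the start of the gene in RefSeq (build GRCr8), 5′ to 3′ on the strand of the gene, with CCAAT on either strand (ATTGG on the other) in capitals. Hmgcs1 lies on the + strand at chr2:53382054-53382303 and Insig1 on the - strand at chr4:8057770-8058019.
Hmgcs1: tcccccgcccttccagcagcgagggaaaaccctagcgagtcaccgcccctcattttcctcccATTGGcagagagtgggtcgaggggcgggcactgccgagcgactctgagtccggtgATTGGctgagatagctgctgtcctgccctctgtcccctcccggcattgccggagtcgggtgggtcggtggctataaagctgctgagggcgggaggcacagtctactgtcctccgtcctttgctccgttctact
Insig1: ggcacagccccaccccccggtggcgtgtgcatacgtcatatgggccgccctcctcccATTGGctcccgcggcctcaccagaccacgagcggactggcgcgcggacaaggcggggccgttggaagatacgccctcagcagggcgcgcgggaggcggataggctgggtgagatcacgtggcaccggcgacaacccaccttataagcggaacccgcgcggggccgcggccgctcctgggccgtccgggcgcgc
CCAAT stood in 14 of the 17 sterol synthesis genes with a promoter in the table (82.4%) and in 34.3% of all 27457 promoters. The letters TCACNCCAC, a form of the sterol regulatory element, stood in 0 of the 17 and in 0.976% of all promoters. A match is a run of letters only, and binding was not measured.

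Neuronal genes lay slightly below Control on most D7 arrays, and few passed the fold limit. Of 21 measured genes of principal neurons, 1 was lower and none higher. Their median was -0.55, beside -0.12 over all genes, and 20 of the 21 were below 0. It was -0.39 with quantile normalization and -0.35 without arrays 33 and 35. The list means were -0.54, -0.22, -0.97, -0.39 and -0.65 on the D7 arrays. The 1 lower gene was Fibcd1, a membrane protein that marks CA1 pyramidal cells, at 16.6, 22.9, 6.25, 27.5 and 20.6 at D7 and 41.1, 40.6 and 42.6 in Control (-1.30 ± 0.35, adjusted p = 0.0162). Every D7 array was below every Control array, and array 33 was by far the lowest. Slc17a7 differed by -0.65 ± 0.17 (adjusted p = 0.0138). Of 20 interneuron genes, 1 was lower (median -0.51), namely Tac1, which encodes substance P, at 4.06, 2.32, 1.77, 4.24 and 4.78 at D7 and 7.74, 7.72 and 8.35 in Control (-1.31 ± 0.43, adjusted p = 0.0395). Gad1 was below Control on every D7 array (-0.75 ± 0.13, adjusted p = 0.00107), Pvalb, which encodes parvalbumin, read 3.68, 3.40, 1.86, 3.81 and 3.45 at D7 and 4.38, 6.48 and 4.12 in Control (-0.64 ± 0.20), and Sst, which encodes somatostatin, read 19.4, 17.1, 10.9, 20.5 and 15.3 at D7 and 19.96, 23.5 and 24.5 in Control (-0.47 ± 0.23, adjusted p = 0.166). Fibcd1 and Tac1 lost the call against Control 36 alone (adjusted p from 0.208 to 0.303), Fibcd1 lost it in a fit of the D7 and Control arrays alone and Tac1 lost it with quantile normalization, with scaling at the percentile 75 and without an intensity trend. Fibcd1 lost the call without D7 33, Control 26 or Control 36 (adjusted p up to 0.0551) and Tac1 without D7 32, D7 33, Control 26, Control 36 or Control 47 (adjusted p up to 0.104), and without arrays 33 and 35 together Fibcd1 (log2 difference -0.92, adjusted p = 0.0436) and Tac1 (log2 difference -1.22, adjusted p = 0.111) were not called.

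Receptor, channel and synapse genes also lay slightly below Control. None of 25 synaptic vesicle and scaffold genes (median -0.45) and none of 29 genes of the GABA system (median -0.47) was called. Without the fold limit 11 and 16 were below Control at an adjusted p under 0.05, beside 15.5% of all genes. Syn1, which tethers synaptic vesicles, read 24.7, 26.7, 19.3, 39.0 and 33.6 at D7 and 50.4, 53.8 and 46.8 in Control (-0.85 ± 0.18, adjusted p = 0.00371). Of 25 glutamate receptor genes 1 was lower (median -0.44), the AMPA receptor gene Gria4 at 7.94, 8.31, 4.09, 8.40 and 8.26 at D7 and 14.1, 15.4 and 15.2 in Control (-1.06 ± 0.19), where array 33 was the lowest. Without array 33 Gria4 differed by -0.86 and was not called, and its other 3 probes gave -0.57, -0.42 and -0.44. Among channels, 2 genes rose in lists whose medians were below 0. Scn7a, which encodes a sodium channel that senses extracellular sodium in glia, read 5.24, 6.71, 3.73, 3.78 and 4.77 at D7 and 0.449, 0.856 and 0.84 in Control (2.78 ± 0.37, adjusted p = 0.000142), the 1 higher of 29 sodium, calcium and HCN channel genes (median -0.44). Kcnn4, a calcium-activated potassium channel of microglia and lymphocytes, read 4.19, 2.09, 8.48, 3.34 and 4.30 at D7 and 1.43, 1.29 and 1.52 in Control (1.51 ± 0.31), the 1 higher of 41 potassium channel genes (median -0.37). A second Kcnn4 probe, with no good Control spot, gave 3.68 (adjusted p = 0.000144). Neuronal list means were lowest on array 33 of the 5 D7 arrays, at -0.88 for synapse, -0.72 for potassium channel and -0.66 for GABA genes. The medians of these 3 lists were -0.25, -0.30 and -0.33 with quantile normalization. Without arrays 33 and 35 they were -0.30, -0.19 and -0.31. Gria4 and Kcnn4 lost the call against Control 36 alone (adjusted p from 0.0668 to 0.0862) and Gria4 lost it with quantile normalization, with scaling at the percentile 75 and with array weights. Gria4 lost the call without D7 33 (log2 difference -0.86), and without arrays 33 and 35 together Gria4 (log2 difference -0.86, adjusted p = 0.00119) was not called.

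Cell cycle genes rose, whereas a few genes of neurogenesis fell. Of 33 cell cycle genes, 16 were higher and none lower (median 0.87), and without array 33 the count was 9. It was 11 without array 35, 6 without both (median 0.54) and 1 against Control 36 alone. Mki67, a nuclear protein of dividing cells, was not above the good-spot limit in Control and rose at least 4.18-fold (1.12, 0.56, 3.21, 0.696 and 1.69 against 0.26, 0.256 and 0.15). Top2a, which untangles chromosomes, read 2.46, 1.17, 8.13, 1.46 and 4.44 at D7 and 0.603, 0.849 and 0.635 in Control (1.99 ± 0.43, adjusted p = 0.00451). Both were highest on array 33 and lowest on array 32. Neurod1, a transcription factor of immature granule neurons, fell (1.74, 3.74, 1.94, 3.73 and 2.85 at D7 and 4.44, 6.28 and 6.15 in Control, -1.06 ± 0.27, adjusted p = 0.0119), as did Hes5, a Notch target of neural stem cells (0.277, 0.879, 0.652, 0.489 and 1.14 at D7 and 1.13, 1.37 and 1.95 in Control, -1.23 ± 0.37, adjusted p = 0.0285), with array 35 just inside the Control range. Second probes gave -0.78 for Neurod1 (adjusted p = 0.0616), with all 8 spots good, and -0.06 for Hes5, with none good. Neurod1, Hes5 and Mki67 were the 3 of 22 neurogenesis genes called, and against Control 36 alone or with scaling at percentile 75 none was lower. Mki67, Top2a, Neurod1 and Hes5 lost the call against Control 36 alone (adjusted p from 0.0705 to 0.269), Neurod1 lost it with quantile normalization and with array weights, Neurod1 and Hes5 lost it with scaling at the percentile 75 and Hes5 lost it with good spots only and in a fit of the D7 and Control arrays alone. Neurod1 lost the call without D7 31, D7 33, Control 36 or Control 47 (adjusted p up to 0.0608) and Hes5 without D7 31, Control 36 or Control 47 (adjusted p up to 0.122), and without arrays 33 and 35 together Neurod1 (log2 difference -0.94, adjusted p = 0.0598) was not called.

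Few myelin and vessel genes were called, and matrix genes lay mostly above Control by less than 2-fold. Of 24 myelin genes 1 was higher, Aspa, which breaks down N-acetylaspartate in oligodendrocytes (4.46, 5.597, 5.91, 4.98 and 5.07 at D7 and 2.53, 2.75 and 2.37 in Control, 1.02 ± 0.16, adjusted p = 0.000599), and the list median was 0.17. Mbp, a major myelin protein, differed by 0.39 ± 0.20. Of 13 genes of oligodendrocyte precursors, Enpp6, an enzyme of newly forming oligodendrocytes, was higher (4.44, 5.04, 13.5, 5.09 and 5.90 at D7 and 3.20, 2.68 and 2.26 in Control, 1.20 ± 0.28), most so on array 33. Of 28 endothelial and mural genes, Icam1, an adhesion molecule for leukocytes, rose (1.49 ± 0.31), while Pecam1, an endothelial junction protein, differed by 0.15 ± 0.16. Of 40 matrix genes 33 were above 0 (median 0.56), and 9 were above Control at an adjusted p under 0.05, beside 8.04% of all genes. The 3 called (6 with scaling at percentile 75) were Timp1, its relative Timp2 (1.14 ± 0.21) and Plau, the urokinase protease (1.78 ± 0.32, adjusted p = 0.0016). Cd44, the hyaluronan receptor, was 1 of 15 perineuronal net genes to rise (1.83 ± 0.39). Among 46 growth factor and TGF-beta family genes, Igf1, a growth factor that microglia also make, read 6.20, 5.10, 18.7, 8.70 and 9.63 at D7 and 1.70, 1.94 and 1.58 in Control (2.32 ± 0.32, adjusted p = 0.000185), Tgfbr1, a receptor for TGF-beta, rose by 1.25 ± 0.28, Tgfb1 was described above, and Bmp3, a bone morphogenetic protein, fell by 1.37 on the log2 scale. Hmox1, the stress-induced heme oxygenase, was with Hspb1 the other of 27 heat shock and oxidative stress genes to rise (2.16 ± 0.40, adjusted p = 0.00183). All 28 oxidative phosphorylation genes lay below 0 and none was called (median -0.27, or -0.03 with quantile normalization), beside -0.12 over all genes and -0.16 over those with all 8 spots good. Second probes gave 0.89 for Icam1 (adjusted p = 0.00161, all 8 spots good), -0.43 for Plau and 0.20 and 0.54 for Tgfbr1, the last 3 with no good spot. A second Pecam1 probe, good on 3 D7 arrays and 1 Control array, gave 0.96 (adjusted p = 0.0578). Aspa, Enpp6, Icam1, Plau, Cd44, Tgfbr1, Bmp3 and Hmox1 lost the call against Control 36 alone (adjusted p from 0.0533 to 0.261), Aspa lost it on log2(value + 0.1), Tgfbr1 lost it in a fit of the D7 and Control arrays alone and Bmp3 lost it with scaling at the percentile 75, with array weights and without an intensity trend. Aspa lost the call without D7 32, D7 33 or Control 47 (log2 difference 0.97), Enpp6 without D7 33 (log2 difference 0.92), Timp2 without D7 33 (log2 difference 0.99), Tgfbr1 without D7 33 (log2 difference 0.91) and Bmp3 without D7 32, D7 33, Control 26, Control 36 or Control 47 (adjusted p up to 0.127), and without arrays 33 and 35 together Aspa (log2 difference 0.97, adjusted p = 0.0041), Enpp6 (log2 difference 0.85, adjusted p = 0.021), Timp2 (log2 difference 0.88, adjusted p = 0.00885) and Bmp3 (log2 difference -1.42, adjusted p = 0.0983) were not called.

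Among the largest falls, genes of red blood cells followed single rats. Alas2, which starts heme synthesis in erythroid cells, read 1.26, 0.141, 0.401, 0.171 and 0.262 at D7 and 1.59, 2.64 and 1.22 in Control (-2.44 ± 0.58, adjusted p = 0.00876). The alpha-globin gene Hba-a3, whose probe may also bind RNA of the other alpha-globin copies, read 19.4, 3.01, 3.13, 1.26 and 4.503 at D7 and 21.8, 38.2 and 12.5 in Control (-2.44 ± 0.59, adjusted p = 0.0093). For both, D7 array 31 lay among the Control values and the other 4 below them. A probe annotated to the zinc finger gene Zfp652 was likewise nearest to Control on array 31, at 2.04, 0.465, 0.311, 0.257 and 0.51 at D7 and 2.69, 3.97 and 1.41 in Control (-2.24 ± 0.51, adjusted p = 0.00668), whereas a second probe of Zfp652 gave 0.30 (adjusted p = 0.179). Alas2 was the 1 called of a list of 7 red blood cell genes that does not hold Hba-a3 (median -0.31, with 3 of the 7 above 0). Alas2, Hba-a3 and Zfp652 lost the call against Control 36 alone (adjusted p from 0.0565 to 0.0847) and Hba-a3 lost it in a fit of the D7 and Control arrays alone. Alas2 lost the call without Control 36 (adjusted p = 0.0556), Hba-a3 without Control 36 (adjusted p = 0.0637) and Zfp652 without Control 36 (adjusted p = 0.0501).

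Other large falls were in single genes. Htr5b, a serotonin receptor gene, read 1.39, 1.98, 0.401, 2.70 and 1.80 at D7 and 3.74, 5.64 and 4.94 in Control (-1.75 ± 0.45, adjusted p = 0.0124). Plac9, which encodes a small secreted protein, read 1.84, 1.75, 0.878, 0.876 and 0.691 at D7 and 3.57, 3.07 and 3.72 in Control (-1.63 ± 0.31, adjusted p = 0.00222). In both, all D7 arrays were below all Control arrays. Klhl14, which encodes a kelch-like protein, differed by -1.56 ± 0.45 and Elf3, a transcription factor of epithelia, by -1.37 ± 0.35, with a second Klhl14 probe at 0.33. Ttr, which encodes transthyretin and is the hallmark of the choroid plexus, had the largest fall among the genes called, at -4.13 (adjusted p = 0.0451), but this call rested on spots left out. On arrays 33 and 35 the Ttr spot was flagged as saturated and thereby missing, at raw intensities of 33004.9 and 29150.7. With these spots kept, Ttr read 2.80, 2.13, 301, 2.56 and 299 at D7 and 225, 5.16 and 70.3 in Control, and it was not called (-1.36, adjusted p = 0.678). Htr5b, Plac9, Klhl14 and Elf3 lost the call against Control 36 alone (adjusted p from 0.117 to 0.231) and Htr5b and Elf3 lost it in a fit of the D7 and Control arrays alone. Htr5b lost the call without Control 36 (adjusted p = 0.0609), Klhl14 without D7 33, Control 26, Control 36 or Control 47 (adjusted p up to 0.071) and Elf3 without Control 36 (adjusted p = 0.0645).

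Genes of the choroid plexus, the tissue that makes cerebrospinal fluid and borders the hippocampus, were high in some samples and low in others. Whether the samples held different amounts of this tissue was not tested. The mean of 24 measured choroid plexus genes over Control was -0.83, -1.28, 1.88, -1.29 and 1.39 on the D7 arrays and 1.08, -1.16 and 0.09 on the Control arrays. Apart from the Ttr call none was called, and the median was -0.02, or -0.89 without arrays 33 and 35 and 1.09 against Control 36 alone. Sostdc1, a secreted BMP antagonist, read 0.253, 0.0699, 29.7, 0.0845 and 20.2 at D7 and 15.01, 0.473 and 3.89 in Control, Folr1, a folate receptor, 1.41, 1.27, 13.997, 1.05 and 8.93 at D7 and 10.03, 6.68 and 2.24 in Control, and Kl, which encodes klotho, 0.122, 0.181, 1.66, 0.172 and 1.16 at D7 and 0.544, 0.216 and 0.185 in Control. Arrays 33 and 35 were the high D7 arrays and Control 26 the highest Control array in each, and arrays 31, 32 and 34 were low. Of the 8 genes highest on array 33 relative to the other D7 arrays, Sostdc1, F5, Prlr and Slc4a5 were on this list. Kcnj13, a potassium channel (1.28, 0.25, 20.1, 0.225 and 14.2 at D7 and 8.18, 0.221 and 3.50 in Control), and Glycam1, a mucin-like glycoprotein (0.293, 0.466, 63.5, 0.362 and 37.3 at D7 and 2.77, 0.0509 and 0.869 in Control), followed the same arrays. Crygs and LOC106182250 were high on array 33 alone, at 1.09 and 2.10, beside at most 0.163 and 0.245 on the other D7 arrays and 0.273 and 0.302 in Control.

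**Figure D5:**
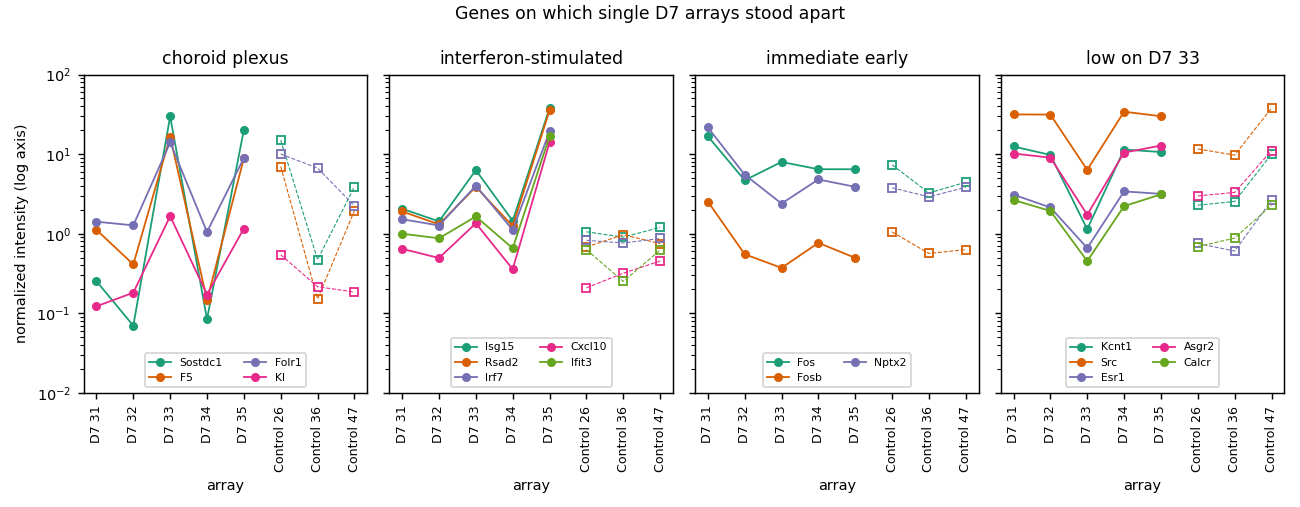
Normalized intensity (vertical log axis) on the D7 arrays (filled circles) and the Control arrays (open squares) of genes that split the D7 arrays, in 4 panels with 1 line per gene; lines only join values of the same gene. Choroid plexus genes are high on D7 33 and 35, interferon-stimulated genes on D7 35, immediate early genes on D7 31, and the genes of the last panel are low on D7 33 and on Control 26 and 36.

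Interferon-stimulated genes were highest in 1 rat. Interferons are secreted signals that switch on a common set of antiviral genes in the cells they reach. The mean of 21 measured members over Control was 0.66, 0.41, 1.58, 0.24 and 3.18 on the D7 arrays, highest on array 35. Isg15, a ubiquitin-like modifier, read 2.06, 1.43, 6.30, 1.45 and 37.9 at D7 and 1.06, 0.905 and 1.20 in Control, Rsad2, the antiviral enzyme viperin, 1.90, 1.31, 3.88, 1.24 and 35.5 at D7 and 0.682, 0.97 and 0.751 in Control, and Irf7, a factor that amplifies interferon production, 1.52, 1.27, 4.004, 1.12 and 19.3 at D7 and 0.826, 0.765 and 0.871 in Control. Array 35 was by far the highest in each, array 33 came next, and arrays 31, 32 and 34 were slightly above Control. With this spread between rats none of the 3 was called (1.93 ± 0.73, 2.08 ± 0.73 and 1.76 ± 0.63, adjusted p = 0.0728, 0.0517 and 0.0574). Cxcl10, a chemokine for T cells, read 0.646, 0.495, 1.35, 0.358 and 14.1 at D7 and 0.209, 0.319 and 0.454 in Control (1.91 ± 0.77, adjusted p = 0.0928), and Ifit3 1.0002, 0.875, 1.65, 0.655 and 16.8 at D7 and 0.631, 0.251 and 0.623 in Control (1.91 ± 0.69).

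Called among the 21 were 5, all higher, and the median was 1.38. The count was 3 without array 33 and 0 against Control 36 alone. They were Ifitm3, a membrane protein that blocks virus entry (5.08, 2.89, 6.06, 2.59 and 10.7 at D7 and 1.35, 1.42 and 2.02 in Control, 1.60 ± 0.37, adjusted p = 0.00746), the GTPase genes Irgm (1.56 ± 0.35) and Gbp2 (1.43 ± 0.39), Ifi44 (1.38 ± 0.42) and the transcription factor gene Irf1 (1.02 ± 0.27). Slfn4, a schlafen gene of myeloid cells, and Zbp1, a sensor of unusual nucleic acids, were among the 15 largest rises and followed array 35 as well. Slfn4 read 1.08, 0.531, 2.40, 0.179 and 9.89 at D7 and 0.157, 0.202 and 0.129 in Control (at least 4.21-fold, adjusted p = 0.0221), and Zbp1 0.176, 1.45, 0.111 and 5.70 at D7, with no value on array 32, against 0.0726, 0.0746 and 0.134 in Control (at least 2.23-fold, adjusted p = 0.0458). Without arrays 33 and 35 the list had 1 call and a median of 0.59, and Slfn4 differed by 1.55 (adjusted p = 0.123), while Zbp1 had too few values to be tested. Second probes gave 0.51 for Irf1 (adjusted p = 0.108, all 8 spots good) and 0.01 for Slfn4, with no good spot. Ifitm3, Irgm, Gbp2, Ifi44, Irf1, Slfn4 and Zbp1 lost the call against Control 36 alone (adjusted p from 0.1 to 0.313), Irgm, Gbp2, Ifi44, Irf1, Slfn4 and Zbp1 lost it in a fit of the D7 and Control arrays alone, Ifi44 and Zbp1 lost it without an intensity trend, Irf1 and Zbp1 lost it on log2(value + 0.1) and with array weights and Zbp1 lost it with quantile normalization, with scaling at the percentile 75 and with all flags kept. Gbp2 lost the call without Control 26 (adjusted p = 0.124), Ifi44 without D7 33, D7 35, Control 26, Control 36 or Control 47 (adjusted p up to 0.111), Irf1 without D7 33, D7 35, Control 26 or Control 36 (adjusted p up to 0.0674), Slfn4 without D7 33, Control 26, Control 36 or Control 47 (adjusted p up to 0.07) and Zbp1 without D7 33, D7 35, Control 26, Control 36 or Control 47 (adjusted p up to 0.133), and without arrays 33 and 35 together Irgm (log2 difference 0.90, adjusted p = 0.00528), Gbp2 (log2 difference 0.88, adjusted p = 0.0923), Ifi44 (log2 difference 0.59, adjusted p = 0.0735), Irf1 (log2 difference 0.59, adjusted p = 0.0807) and Slfn4 (log2 difference 1.55, adjusted p = 0.123) were not called.

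The starts of Rsad2 and Cxcl10 are shown for 2 runs of GAAA with any 2 bases between them, the core of the interferon-stimulated response element, in capitals on either strand. They were read from RefSeq (GRCr8) as above, Rsad2 on the - strand at chr6:48788121-48788370 and Cxcl10 on the + strand at chr14:15988816-15989065.
Rsad2: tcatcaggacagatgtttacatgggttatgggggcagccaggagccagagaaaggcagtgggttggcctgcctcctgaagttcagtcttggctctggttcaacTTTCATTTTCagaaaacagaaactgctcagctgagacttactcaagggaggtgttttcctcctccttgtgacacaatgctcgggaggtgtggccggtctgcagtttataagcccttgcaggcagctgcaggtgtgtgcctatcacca
Cxcl10: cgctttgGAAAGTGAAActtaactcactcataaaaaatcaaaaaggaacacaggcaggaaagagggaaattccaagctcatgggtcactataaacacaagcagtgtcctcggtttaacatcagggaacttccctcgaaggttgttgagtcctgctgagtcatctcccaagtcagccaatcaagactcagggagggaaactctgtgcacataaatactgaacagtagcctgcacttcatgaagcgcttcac
This motif stood in 15 of the 20 interferon-stimulated genes with a promoter in the table (75%) and in 3.29% of all promoters.

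Immediate early genes, which neurons switch on within minutes of strong activity, set array 31 apart. None of 28 measured was called (median -0.23, or 0.05 without arrays 33 and 35), and the list's mean was 0.68, -0.37, -0.42, -0.10 and -0.25 on the D7 arrays. Fos read 16.8, 4.69, 7.97, 6.46 and 6.46 at D7 and 7.34, 3.25 and 4.44 in Control, Fosb 2.54, 0.553, 0.372, 0.768 and 0.497 at D7 and 1.05, 0.564 and 0.632 in Control, and Nptx2, a secreted pentraxin of excitatory synapses, 21.7, 5.52, 2.39, 4.81 and 3.88 at D7 and 3.77, 2.91 and 3.83 in Control. Array 31 was the highest of the 8 arrays in all 3, and on the others D7 and Control overlapped. A second probe of Fos gave -0.10. Npy, which encodes neuropeptide Y, was also highest on array 31 (26.1, 12.7, 6.65, 12.5 and 9.08 at D7 and 9.62, 9.26 and 8.89 in Control, 0.38 ± 0.48, adjusted p = 0.635).

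Among the 8 genes lowest on array 33 relative to the other D7 arrays, 5 were low on Control 26 and 36 as well. Kcnt1, a sodium-activated potassium channel, read 12.5, 9.76, 1.14, 11.4 and 10.6 at D7 and 2.29, 2.54 and 9.99 in Control. The kinase gene Src read 31.5, 31.4, 6.34, 34.1 and 29.9 at D7 and 11.6, 9.72 and 37.7 in Control, and the estrogen receptor gene Esr1 3.09, 2.14, 0.661, 3.40 and 3.17 at D7 and 0.754, 0.605 and 2.62 in Control. Asgr2, a lectin receptor, and Calcr, the calcitonin receptor, had the same order, at 10.2, 9.03, 1.73, 10.5 and 12.8 at D7 and 2.99, 3.30 and 11.03 in Control and 2.65, 1.93, 0.453, 2.22 and 3.12 at D7 and 0.688, 0.88 and 2.28 in Control. Control 47 lay with the D7 arrays other than 33, and none of the 5 was called (adjusted p = 0.512 for Src and 0.212 for Esr1). A second Src probe did not show it, with a difference of -0.36 (adjusted p = 0.0405). Further probes of Asgr2 (0.30) and Calcr (-0.53 and -0.51) did not show it either. They had at most 2 good D7 spots and read highest on array 33 among the D7 arrays. A further Esr1 probe with no good spot gave 0.65. Over the D3 arrays Kcnt1 read 6.59 to 10.5 and in Chronic 0.823 to 10.8, with Chronic 44 the lowest. Of the other 3, Rab8b, which encodes a small GTPase of vesicle traffic, read 6.97, 10.3, 0.627, 5.07 and 8.25 at D7 and 9.64, 5.79 and 10.1 in Control, and its second probe gave -0.26, while Nxph3, a neurexin ligand, and Htr5b were low on array 33 but not in Control.

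D7 differed from the earlier and later times at few genes. Against D3, 9 genes were higher at D7 (0.073%) and 56 lower (0.454%), and of all probes 32 (0.0947%) and 77 (0.228%). The probe counts were 13 higher without D7 32 or D7 34, 17 without D7 35 and 14 with quantile normalization, and 132 lower without D7 33, 46 without D7 32 and 39 without D7 34. With array weights they were 57 and 145. Those lower were led by Lcn2, an iron-binding acute phase protein (-2.27 ± 0.36, adjusted p = 0.00564), the matrix protein gene Postn (-2.27 ± 0.41), the mitotic kinase gene Pbk (-2.13 ± 0.31), the cell cycle kinase gene Cdk1 (-2.02 ± 0.33) and the matrix gene Fbln2 (-1.95 ± 0.36). Of 33 cell cycle genes 12 were lower at D7 than at D3 and none higher (median -1.12), while 16 were above Control. Cdk1 read 1.52, 0.731, 4.34, 0.928 and 2.32 at D7, 4.79 to 8.53 over the D3 arrays and 0.387, 0.435 and 0.515 in Control. Of 26 reactive astrocyte genes 3 were lower than at D3 (median -0.45), and of 28 phagocyte activation genes 1 (median -0.17).

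Genes higher at D7 than at D3 included Agt, the precursor of angiotensin, which astrocytes make (1.16 ± 0.18, adjusted p = 0.00433), Casr, the calcium-sensing receptor (1.23 ± 0.20), Itih3, which encodes a chain that binds hyaluronan (1.18 ± 0.17, adjusted p = 0.00274), and Cyp4f4, a cytochrome P450 (1.13 ± 0.24). Enpp6 was also higher than at D3 (1.07 ± 0.24, adjusted p = 0.0387). Against Control, Agt differed by only -0.16 at D7 and was not called. Lbhd2 had the largest difference (2.28 ± 0.50, adjusted p = 0.0303), with D7 values of 1.40, 3.91, 8.89, 1.05 and 1.86 that covered those of Control (1.72, 1.66 and 5.52). Against Chronic, 2 genes were higher (0.0162%), among them Lyve1, a hyaluronan receptor of lymphatic vessels and of macrophages along brain vessels (1.23 ± 0.23, adjusted p = 0.0359). Lyve1 read 2.62, 1.58, 1.63, 3.28 and 3.03 at D7 and 1.05, 0.852 and 1.09 in Control and was also above Control (1.23 ± 0.27, adjusted p = 0.00554). Lower than in Chronic were 3 (0.0243%), the probe annotated to Zfp652 (-2.18 ± 0.44, adjusted p = 0.0497), Tac3, which encodes neurokinin B (-1.63 ± 0.26, adjusted p = 0.0135), and Usf3, which encodes a basic helix-loop-helix protein (-1.02 ± 0.12, adjusted p = 0.000856). Of all probes, 10 were higher (0.0296%) and 7 lower (0.0207%) than in Chronic, and without the fold limit 10 genes were above it (0.0811%) and 17 below (0.138%). Without D7 31 the probes higher were 6, and with array weights 1 was lower. Usf3 read 6.37, 5.80, 4.27, 5.10 and 3.74 at D7 and 9.79, 11.2 and 11.6 in Control and was below Control as well (-1.13 ± 0.13, adjusted p = 4.18e-05). Lyve1 lost the call against Control 36 alone (adjusted p = 0.0829) and Usf3 lost it with quantile normalization. Without arrays 33 and 35 together Usf3 (log2 difference -0.92, adjusted p = 5.02e-05) was not called.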

How the data were processed

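Total RNA of 18 rat hippocampi was hybridised to CodeLink 1-colour arrays. The authors deposited, per spot, a background-subtracted intensity that had been divided by a constant of each array, so that the median spot was near 1, with a quality flag (G good, L near background). Their series value table held the same values, equal within 1e-6 for 33969 of 33993 lines. Gene names came from the platform annotation, which can be old, for 16739 probes and from RefSeq accessions for 205. A further 165 probes named several genes and 16740 none.

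From the deposited intensities, spots of gene probes flagged G or L were kept, values under percentile 1 of the positive values of an array were set to it, and log2 was taken. Testing a probe took 3 or more values per pilocarpine group and 2 or more in Control. limma 3.58.1 (R 4.3.3) fitted 4 group means over 18 arrays with an intensity trend, and Benjamini-Hochberg adjustment ran over 33800 probes. A gene stands for its probe with the highest mean. Where no Control spot was good, "at least" folds were set against the lowest good signal. The depth of an array has no count, and the number of arrays limits the precision. Genes named are the largest changes called, list members and genes that split the arrays. The members and lists were chosen with earlier results of these data known. The fit was tested on simulated data. Alternatives covered scaling, floor, filters, flags, the controls used, array weights, single arrays left out and the methods' t-test. A few genes are not reported here.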

Additional observations from a re-analysis of the deposited data

Results flagged for a closer look

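Single arrays lay far from the other D7 arrays for several genes, measured as the gap to the nearest array over the whole range of the 5 arrays, with a limit of 0.71. The ratio was computed for the 149 genes of the text with values on at least 4 D7 arrays. It was also computed for the means of 39 lists. Chance marks about 1 in 20 groups, so that a ratio past the limit is not by itself a result about a gene or list. On array 33 this ratio was 0.923 for Gria4, 0.922 for Src, 0.898 for Kcnt1, 0.84 for Pvalb, 0.825 for Asgr2, 0.779 for Nxph3, 0.764 for Itih3, 0.752 for Calcr, 0.748 for Rab8b and 0.717 for Esr1, all low there. Src, Kcnt1, Asgr2, Nxph3, Calcr, Rab8b and Esr1 were chosen for being lowest on this array, so that their ratios are a description only. It was 0.795 for Plau and 0.744 for Enpp6, both high on array 33, and 0.825 for the mean of the oligodendrocyte precursor list. On array 35 it was 0.716 for Ifit3, high there. On array 34 it was 0.788 for Lcat and on array 32 0.715 for Pecam1, both low.

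Differences between D7 and the other times past the threshold in the test of the difference itself were, against D3, 2.28 for Lbhd2, 1.23 for Casr, 1.18 for Itih3, 1.16 for Agt, 1.13 for Cyp4f4 and 1.07 for Enpp6 on the log2 scale. In the other direction they were -2.27 for Lcn2 and for Postn, -2.13 for Pbk, -2.02 for Cdk1, -1.95 for Fbln2, -1.76 for Top2a and -1.60 for Mki67. Against Chronic they were 1.23 for Lyve1, -2.18 for the probe annotated to Zfp652, -1.63 for Tac3 and -1.02 for Usf3.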

How the results depend on the processing

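For D7 against Control, every setting run with the fold limit gave more higher than lower probes, beside 1035 and 146 as reported. Higher and lower counts were 463 and 96 with good spots only, 466 and 52 against Control 36 alone, 556 and 97 without arrays 33 and 35, and 589 and 74 at an adjusted p under 0.01. The methods' t-test after adjustment gave 91 and 21. Without the fold limit the counts turned to 2097 and 4021. Higher counts were 669 in a fit of the D7 and Control arrays alone, and lower counts 66 with scaling at percentile 75 and 97 on log2(value + 0.1). The median over all probes was -0.06, and 0.05 with scaling at percentile 75. Leaving out each array in turn gave 720 to 1130 higher and 87 to 211 lower, with the lowest counts without D7 33 and the highest without D7 34. Leaving out each D7 array in turn gave, against D3, 13 to 28 higher and 39 to 132 lower, and, against Chronic, 6 to 14 and 5 to 9. Against D3, quantile normalization gave 14 higher, and array weights 57 higher and 145 lower. Against Chronic, array weights gave 1 lower. Of the list genes, 113 to 152 were higher and 8 to 21 lower with 1 array left out. Against Control 36 alone 73 were higher, and lower were 9 with quantile normalization and 7 with scaling at percentile 75. Of 305 named genes, called or not, 80 lost the threshold with the methods' t-test after adjustment and 225 stayed on their side of it. For a gene that was not called, this means only that it stayed uncalled. Of the probes called, 88 of the 1035 higher and 21 of the 146 lower were still called with that test. The lost calls given above for single genes do not cover the methods' t-test, with which Alox12 and Bcl3, for example, lost the call after adjustment. No named gene changed sign where it was called. The causes of these changes were not tested. No paired analysis was possible because array numbers differ between D7, D3, Chronic and Control. A normexp background correction and a slide or scan block were not run, since the values used were already background-subtracted and give no slide or scan.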
